A study of Mus musculus with 54 samples.

Results

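Emerin is a protein of the inner nuclear membrane, and its loss causes X-linked Emery-Dreifuss muscular dystrophy. The step described here lies between day 1 and day 2 of differentiation in emerin-null (EMD-/y) mouse myogenic progenitors. The cells were H2K progenitors, which are grown out of muscle from mice that carry a conditional immortalizing antigen under an interferon-inducible promoter. They were grown with γ-interferon, plated densely overnight, and then switched to medium with horse serum and without γ-interferon. The same switch moved them to a higher temperature and a lower CO2 level. Day 1 and day 2 are 24 h and 48 h after that switch. Every gene in the deposited comparison of these groups was a member, which gave 17876 of the 18998 genes listed in the 6 comparisons used. Each group had 3 labelled replicates, so 6 of the 54 samples of the series lay behind the transition.

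Wildtype H2K progenitors at the same days were the nearest comparison. The EMD-/y line was also followed from day 0 to day 1. The +EMD line was made from EMD-/y progenitors with a lentivirus carrying wildtype emerin, and selected and kept in puromycin. It was seeded more densely than wildtype and EMD-/y for imaging, and its density for RNA is not named in the methods. The comparison of wildtype with EMD-/y therefore also compares 2 separately derived lines, and genotype and line cannot be told apart.

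Myogenic progenitors first leave the cell cycle, under the control of MyoD-family factors and of the CDK inhibitor p21, and then build the contractile apparatus and fuse. Cell cycle genes are known to be switched off together by E2F and DREAM complexes that act on short promoter elements. Contractile genes are known to be switched on through E-boxes, bound by MyoD and myogenin, and through MEF2 sites. Amino acid shortage and a loaded endoplasmic reticulum are known to call on ATF4 and the unfolded-protein response.

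Each gene had 1 deposited level per day, in normalized counts, pooled over the 3 libraries. The spread between replicates is not in these levels, so no value below has an SD and no difference was tested. A gene is called higher or lower when log2(level + 1) differed by at least 1, which is 2-fold, and its larger level was at least 10. All log2 values and folds below are on that scale, with 1 added to each level. The arithmetic mean of each pair of levels was the mean over the 6 libraries, but their ratio had been drawn towards 1. Genes with a single read in all 6 libraries carried a fold of 0.894 to 0.897 or of 1.14 to 1.15, and no level was 0. Folds of genes with few reads are therefore understated. The levels summed to 16719491 normalized counts on day 1 and 19697179 on day 2. In bulk RNA, fewer cells with a transcript and less of it per cell cannot be told apart.

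The targeted gene, Emd, had no level in the day 1 to day 2 comparison of EMD-/y cells. In the comparison with wildtype it stood at 1720 in wildtype and 2.36 in EMD-/y on day 1, and at 987 and 2.35 on day 2. In the libraries labelled +EMD mouse Emd was at 0.512 and 0.458, so its level does not check that label. Of the 12 markers of myogenic cells all were above the floor of 10, among them desmin (Des), which went from 25878 to 60634, and Myod1. By the 2-fold rule 4 of them were higher and 2 lower on day 2, the latter Pax7 (-1.23) and Sdc4 (-1.16), or 1 and 3 with both days scaled to the same sum. The markers of other cell types were sparse: 2 of 9 endothelial, 2 of 10 immune, 2 of 10 Schwann and neural, 3 of 10 adipocyte and 6 of 12 fibroblast markers reached the floor. Pecam1 was at 6.02 and 2.25, Ptprc at 0.326 and 0.33, and Fabp4 at 0.949 and 0.998. Of 10 smooth muscle and pericyte markers 9 were above the floor, with 2 higher and 3 lower on day 2 by the 2-fold rule, and the leading one was Acta2 at 52275 and 80969.7, a gene that differentiating myoblasts also use. Their part in the results was not tested.

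Of the 13349 genes above the floor, 1016 were higher on day 2 (7.61%) and 1472 were lower (11.0%). The other 10861 genes (81.4%) stayed within 2-fold. The median log2 change was -0.01, and the central 90% of genes lay between -1.47 and 1.23. At least 8-fold differences were found in 60 genes that were higher and 86 that were lower. The split depends on scaling: 40.8% of called genes were higher with the levels as deposited, and 23.3% when both days were scaled to the same sum, which moves every gene by -0.24. Scaled to the same sum, 644 genes were higher and 2125 lower. Counts of list members under that scaling belong beside these totals and not beside the shares as deposited. The contractile, cell cycle and stress lists kept their direction under that scaling, but 0 genes of the neuromuscular synapse, respiratory chain, insulin-like growth factor and HDAC3 lists were then higher.

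**Figure D1:**
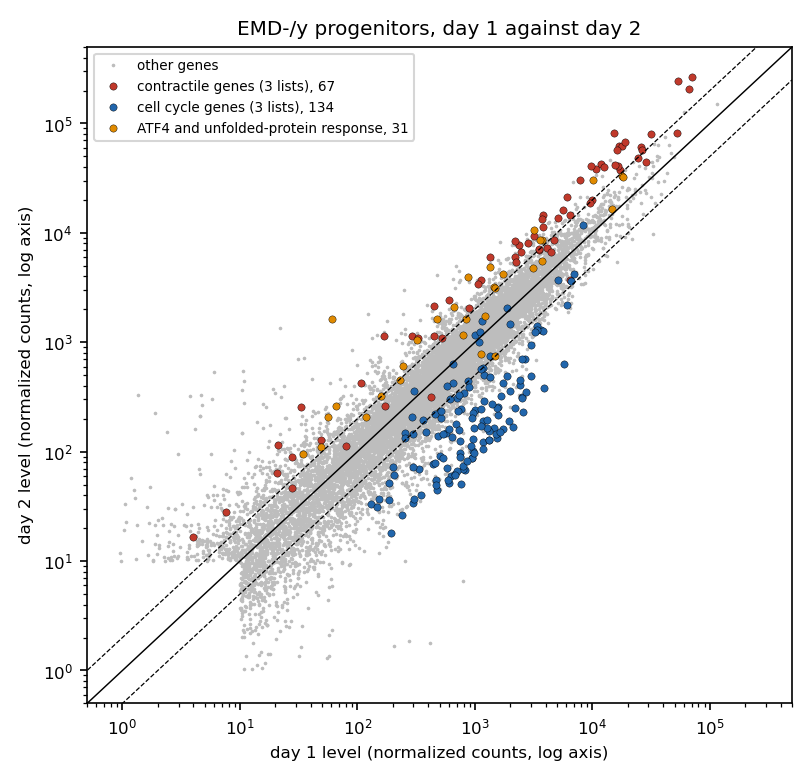
Each point is a gene above the floor, with its EMD-/y level in normalized counts on day 1 (x, log axis) and day 2 (y, log axis); the solid line marks equal levels and the dashed lines a 2-fold difference. The 67 contractile genes lie mostly above the upper dashed line, and the 134 cell cycle genes mostly below the lower one.

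The promoters of a few genes from lists that moved are shown, with short elements marked that were searched for in them. All are the 250 bases before the RefSeq start (GRCm38.p6), written 5′ to 3′ on the strand of the gene. In the mitotic genes Ccnb2 (chr9:70421555-70421804, minus strand) and Cdc20 (chr4:118437344-118437593, minus strand) capitals mark CCAAT and TTTGAA, the letters of the cell cycle homology region. In Ccnb2 the marked TTTGAA begins 167 bases before the start, ahead of the CCAAT matches at 87, 54 and 21. Whether it is such a region was not tested. In the replication helicase gene Mcm6 (chr1:128359706-128359955, minus strand) they mark the E2F site TTTGGCGC.
Ccnb2: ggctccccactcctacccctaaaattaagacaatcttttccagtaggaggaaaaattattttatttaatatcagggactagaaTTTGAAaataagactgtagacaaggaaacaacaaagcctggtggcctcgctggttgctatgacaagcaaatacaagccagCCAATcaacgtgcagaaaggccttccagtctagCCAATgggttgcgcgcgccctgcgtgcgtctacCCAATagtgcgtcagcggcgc
Cdc20: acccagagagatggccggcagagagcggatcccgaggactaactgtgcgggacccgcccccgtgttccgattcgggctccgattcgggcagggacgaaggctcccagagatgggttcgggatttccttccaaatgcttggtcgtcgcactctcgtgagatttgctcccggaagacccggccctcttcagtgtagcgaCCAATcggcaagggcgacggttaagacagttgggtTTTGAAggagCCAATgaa
Mcm6: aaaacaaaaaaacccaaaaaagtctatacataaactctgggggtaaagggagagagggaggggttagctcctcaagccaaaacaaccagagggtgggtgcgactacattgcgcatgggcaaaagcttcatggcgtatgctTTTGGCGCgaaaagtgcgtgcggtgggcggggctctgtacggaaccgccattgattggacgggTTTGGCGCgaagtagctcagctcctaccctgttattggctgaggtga

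In the skeletal actin gene Acta1 (chr8:123894776-123895025, minus strand), the fast regulatory light chain gene Mylpf (chr7:127211358-127211607, plus strand) and the myogenin gene Myog (chr1:134289754-134290003, plus strand), capitals mark E-boxes, CANNTG.
Acta1: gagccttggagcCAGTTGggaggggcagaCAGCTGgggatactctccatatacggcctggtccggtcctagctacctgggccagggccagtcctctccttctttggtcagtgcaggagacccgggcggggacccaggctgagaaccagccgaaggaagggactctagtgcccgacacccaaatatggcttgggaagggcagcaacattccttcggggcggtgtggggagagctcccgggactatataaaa
Mylpf: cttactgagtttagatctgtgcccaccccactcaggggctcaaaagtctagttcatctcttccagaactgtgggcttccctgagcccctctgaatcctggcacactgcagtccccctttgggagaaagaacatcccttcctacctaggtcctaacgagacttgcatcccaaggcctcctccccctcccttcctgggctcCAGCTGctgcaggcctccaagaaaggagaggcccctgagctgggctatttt
Myog: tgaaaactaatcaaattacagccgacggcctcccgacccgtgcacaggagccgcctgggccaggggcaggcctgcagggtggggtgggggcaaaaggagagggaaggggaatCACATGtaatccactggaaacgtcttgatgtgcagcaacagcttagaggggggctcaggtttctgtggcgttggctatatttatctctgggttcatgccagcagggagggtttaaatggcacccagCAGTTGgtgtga

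In the hormone gene Fgf21 (chr7:45615491-45615740, minus strand), the glutathione-degrading enzyme gene Chac1 (chr2:119350992-119351241, plus strand) and the asparagine synthetase gene Asns (chr6:7693210-7693459, minus strand), capitals mark TGATGNAA, the element bound by ATF4 with CHOP or C/EBP partners. This element was added to the search after the levels of these genes had been seen.
Fgf21: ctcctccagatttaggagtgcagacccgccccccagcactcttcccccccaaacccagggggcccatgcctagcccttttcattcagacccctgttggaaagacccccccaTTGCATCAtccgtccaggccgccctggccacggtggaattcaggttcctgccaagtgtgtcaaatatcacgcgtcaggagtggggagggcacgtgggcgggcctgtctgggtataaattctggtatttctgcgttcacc
Chac1: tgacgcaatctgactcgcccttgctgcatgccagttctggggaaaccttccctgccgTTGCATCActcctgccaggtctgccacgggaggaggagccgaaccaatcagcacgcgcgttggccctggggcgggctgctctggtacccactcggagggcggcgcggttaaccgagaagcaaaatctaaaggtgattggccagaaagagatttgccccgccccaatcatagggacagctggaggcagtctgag
Asns: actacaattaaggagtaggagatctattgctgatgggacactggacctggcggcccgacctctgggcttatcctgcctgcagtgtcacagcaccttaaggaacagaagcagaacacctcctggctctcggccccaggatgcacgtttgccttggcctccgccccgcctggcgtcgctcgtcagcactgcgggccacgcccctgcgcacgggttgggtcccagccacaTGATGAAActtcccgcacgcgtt

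The elements were counted on both strands in windows from 250 bases before to 50 after the start, for 10109 of the 13349 genes. TTTGAA was present in 41 of 56 mitosis promoters (73.2%), against 11.7% of all genes above the floor, and CCAAT in 73.2% against 39.1%. Promoters of all lower genes held TTTGAA in 18.4% and CCAAT in 42%. CCAAT was also in 66.7% of promoters of the ATF4 and unfolded-protein response list, which had more higher than lower genes. Among DNA replication promoters TTTGGCGC was found in 15.4% and TTTCCCGC in 20.5%, against 0.989% and 2.16%. In promoters of all lower genes the shares were 1.59% and 4.49%. The E-box form CAGCTG, which every CANNTG count includes, was in 43.4% of contractile promoters and 15.3% of all, and CANNTG itself in 84.9% and 62.8%. In promoters of all higher genes CAGCTG was in 23.8% and CANNTG in 73.3%. The MEF2 site was in 9.43% of contractile promoters, 3.12% of the promoters of all higher genes, 0.0935% of those of lower genes and 0.495% of all. TGATGNAA was in 26.7% of promoters of the ATF4 and unfolded-protein response list, 3.12% of those of all higher genes and 2.14% of all. A match describes letters in a window and was not tested as a site.

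Contractile genes were higher on day 2 as a group. Of 67 genes for myosins, the thin filament and the Z-disc and M-band, 53 were higher on day 2 and 0 were lower, beside 7.61% higher and 11.0% lower of all genes. Their share of the summed level went from 4.03% to 10.1%. With both days scaled to the same sum 13 myosin, 15 thin filament and 18 Z-disc genes were higher and 1 was lower. The gene with the most normalized counts gained was embryonic myosin heavy chain, Myh3, which went from 70177 to 268179 (3.82-fold). Skeletal actin, Acta1, went from 53578 to 246414 (4.6-fold), and cardiac actin, Actc1, from 66115 to 205514 (3.11-fold). Per kilobase of transcript, Acta1 had a level of 36177 on day 1 and 166384 on day 2, and Actc1 of 45253 and 140667, so that Actc1 was the greater on day 1 and Acta1 on day 2.

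The myosin list had a median log2 change of 1.85, with 13 of 16 genes above the floor higher and 0 lower. Embryonic, perinatal and fast heavy chains were among them. Perinatal Myh8 went from 15402 to 81142 (5.27-fold) and fast Myh1 from 9655 to 40629 (4.21-fold). Fast Myh4 started at 168 and reached 1147 (6.78-fold), and Myh2 started at 33.1 and reached 257 (7.59-fold). Myh4 and Myh2 thus had the larger ratios from low levels, while Myh3 was the leading heavy chain per kilobase on both days, at 11592 and 44298 against 2504 and 13194 for Myh8. Slow Myh7, at 3815 and 14537, was 3.81-fold higher. The light chains Mylpf, Myl4 and Myl1 were 3.63-fold, 3.7-fold and 3.46-fold higher. The nonmuscle heavy chain Myh9, in no list, was at 15852 and 9557.

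In the thin filament 18 of 22 genes were higher and 0 lower, with a median of 1.5. The calcium sensors Tnnc1 and Tnnc2 went from 16171 to 57802 and from 7844 to 30584. Tropomyosin Tpm2 was 2.56-fold higher, and the pointed-end proteins Tmod1 and Lmod2 were 4.52-fold and 4.05-fold higher. In the Z-disc and M-band list 22 of 29 were higher and 0 lower, with a median of 1.43. Its steepest members were the fast myosin-binding protein Mybpc2 (21.1 to 116), the Z-disc protein Myoz2 (448 to 2128), Xirp2 (107 to 429) and the LIM protein Csrp3 (294 to 1135).

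Calcium release and membrane genes shared the direction. In the excitation-contraction coupling list 22 of 28 genes were higher, 0 were lower, and the median was 1.41. The calcium buffer parvalbumin, Pvalb, went from 24.6 to 201 (7.92-fold). The triad protein Trdn was 4.06-fold higher, the calcium channel subunit Cacng6 3.97-fold and the potassium channel Kcnj11 4.13-fold. The release channel Ryr1 went from 4457 to 11112 and the pump Atp2a1 from 12484 to 41692. Of 12 neuromuscular synapse genes 2 were higher, the acetylcholine receptor subunits Chrng (2.23-fold) and Chrna1 (2.01-fold). Of 17 genes of the dystrophin-glycoprotein complex and its limb-girdle partners 7 were higher and 0 lower, led by the protease Capn3 (746 to 3687), with the sarcoglycan Sgcd at 3.82-fold and sarcospan, Sspn, at 2.46-fold. Scaled to the same sum, 19 excitation-contraction coupling, 0 neuromuscular synapse and 4 dystrophin-glycoprotein complex genes were higher.

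Among genes for muscle energy supply 15 of 26 were higher, 1 was lower and the median was 1.3. The muscle forms of cytochrome oxidase Cox6a2 and Cox8b went from 244 to 1806 and from 99.4 to 618. The insulin-responsive glucose transporter Slc2a4 was 5.14-fold higher, and the sarcomeric mitochondrial creatine kinase Ckmt2 was 5.08-fold higher. Its ubiquitous counterpart Ckmt1 was the lower member, 19.3 and 7.0. The 54 respiratory chain genes had a median of 0.64 with 6 higher and 1 lower, and 0 were higher with equal sums. Ndufb9, Atp5g1, Ndufs4 and Atp5h were 2.18-fold, 2.15-fold, 2.14-fold and 2.12-fold higher, and Atp5g2 was 3.07-fold lower. Atp5g1, Atp5g2, Atp5h and Ndufb9 share near-identical stretches with other annotated genes, so their reads could be split.

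**Figure D2:**
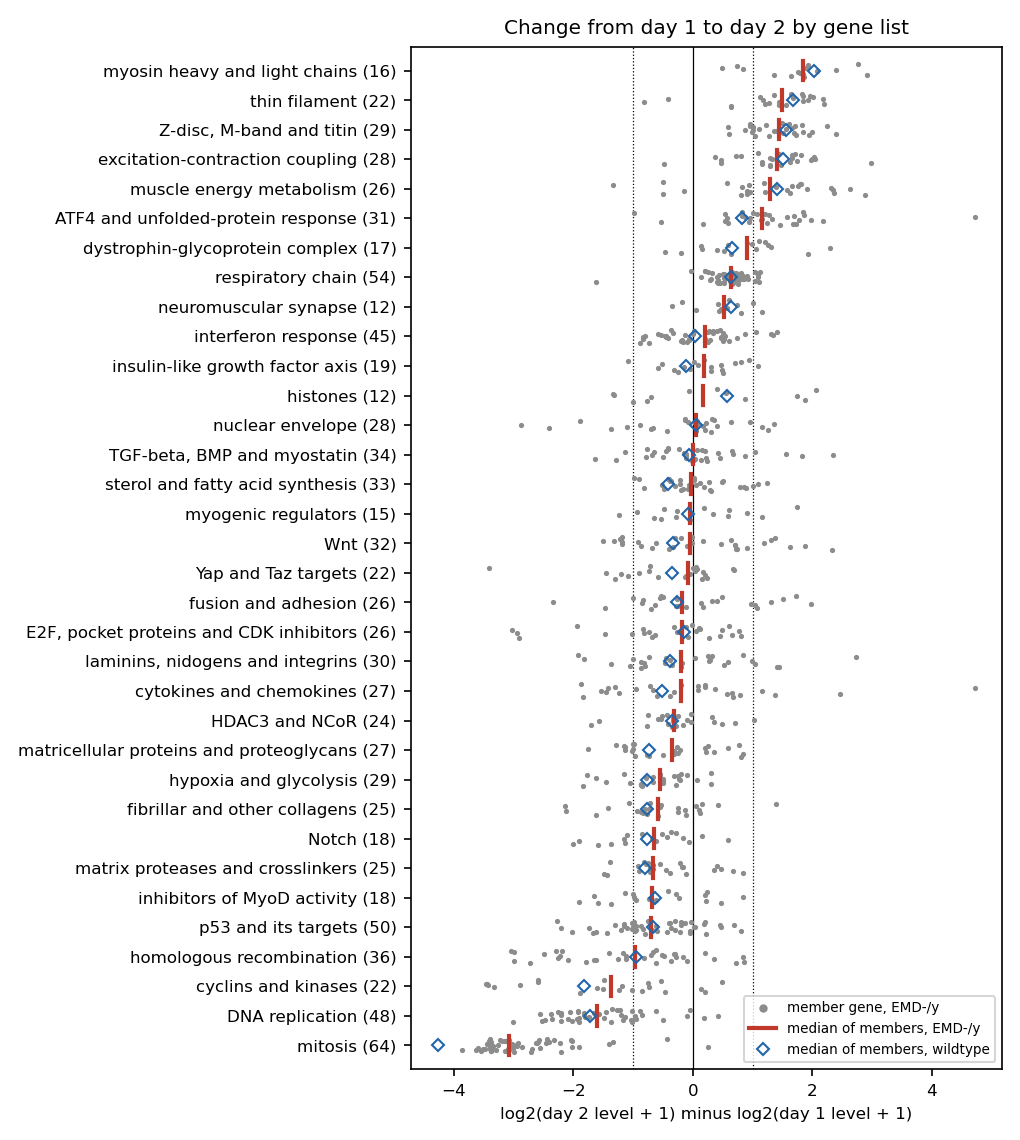
Each grey point is 1 gene above the floor, with its log2 change from day 1 to day 2 in EMD-/y on x; red bars are the medians of the 34 lists, blue diamonds the wildtype medians, dotted lines 2-fold, and numbers in parentheses the genes above the floor. The medians run from -3.08 for mitosis to 1.85 for the myosins, and the widest gap to the wildtype median is at mitosis.

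The upstream factors had smaller changes than the contractile genes. Myod1 went from 12318 to 18460.5 and Myog from 28222 to 42984, both within 2-fold. Myf5, the factor of early myoblasts, was at 380.5 and 241. Of the 15 myogenic regulators above the floor 2 were higher, Myf6 (18.6 to 64.8) and Mef2c (5887 to 13115), and 1 was lower, the satellite cell factor Pax7 (793 to 337). With both days scaled to the same sum 1 was higher and 2 were lower. Among 18 inhibitors of MyoD activity 5 were lower and 0 higher, including Hey2 (3.74-fold), Twist2 (3.15-fold), Id4 (3.02-fold) and Hes1 (2.57-fold).

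Fusion genes split. Of 26 fusion and adhesion genes 6 were higher and 2 lower, or 4 and 5 with both days scaled to the same sum. The fusogen Mymk went from 14018 to 46239 (3.3-fold), while its partner Mymx was at 1032 and 1442. Tmem182, Ncam1, Fer1l5 and Itga7 were 3.93-fold, 2.86-fold, 2.46-fold and 2.06-fold higher. The lower genes were the adhesion molecule Kirrel (2828 to 1021) and Adgrb1 (19.5 to 3.08).

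Cell cycle genes were lower on day 2. Of 134 genes for DNA replication, mitosis and cyclins with their kinases, 113 were lower on day 2 and 0 were higher, and their share of the summed level went from 1.10% to 0.335%. In the mitosis list 62 of 64 were lower, with a median of -3.08 and quartiles of -3.38 and -2.59. The kinesin Kif15 went from 754 to 50.7 (14.6-fold) and the centromere motor Cenpe from 2102 to 169 (12.4-fold). The spindle pole protein Aspm was 12.1-fold lower, the hyaluronan receptor and spindle protein Hmmr 11.7-fold, the kinase Aurkb 11.4-fold and the anaphase activator Cdc20 10.3-fold. The proliferation marker Mki67 went from 3899 to 382, and topoisomerase Top2a from 5676 to 638. The checkpoint protein Bub3 stayed within 2-fold, at 2004 and 1482. Securin, Pttg1, the inhibitor of sister separation, stood at 303 and 362 and was the only one of the 64 with a change above 0.

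Cyclins and their kinases had 14 of 22 lower and 0 higher. The mitotic cyclins had close ratios: Ccna2 went from 2563 to 232, Ccnb1 from 1734 to 160.2 and Ccnb2 from 953 to 86.9, or 11.0-fold, 10.8-fold and 10.9-fold lower. The phosphatase Cdc25c was 10.0-fold lower. Replication genes had smaller ratios, with 37 of 48 lower, 0 higher and a median of -1.61. Mcm10 was 8.04-fold lower, the polymerase Pole 5.86-fold, thymidine kinase Tk1 5.75-fold and the primase Prim1 5.58-fold. The helicase subunit Mcm6 went from 2645 to 708, and the origin subunits Orc2, Orc3 and Orc4 stayed within 2-fold.

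The regulators of this program were uneven. Of 26 E2F, pocket protein and CDK inhibitor genes 6 were lower and 0 higher. The lower ones were E2f7 (464 to 55.9), Mybl2 (231 to 29.0), Foxm1 (1166 to 155), Rbl1 (861 to 223), E2f1 (991 to 358) and Tfdp1 (3807 to 1871). The other E2F genes stayed within 2-fold as deposited (E2f5 and E2f8 passed it with equal sums), with E2f2 at 1303 and 1422, E2f3 at 628 and 503, E2f4 at 1203 and 1645, E2f5 at 135 and 75.9, E2f6 at 702 and 990.0, and E2f8 at 1861 and 1038. The CDK inhibitors stayed within 2-fold. Cdkn1a, which encodes p21, was already at 36082 on day 1 and stood at 63292 on day 2, and Cdkn1c was at 18810.4 and 32158. Cdkn1b was at 855 and 1305, Cdkn2a at 2938 and 1885, Cdkn2b at 760.4 and 914, Cdkn2c at 728 and 455, and Cdkn2d at 368 and 364.

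Repair and damage genes shared the direction. Of 36 homologous recombination genes 18 were lower and 0 higher, including Rad54l (8.0-fold), Exo1 (7.98-fold) and Eme1 (6.64-fold). Of 50 genes for p53 and its targets 15 were lower and 0 higher, beside 11.0% and 7.61% of all genes. Among the lower were Gtse1 (4.85-fold), Pidd1 (4.63-fold), Chek1 (4.06-fold) and Perp (3.34-fold). With both days scaled to the same sum 23 of the 50 were lower, and 2125 of all genes in place of 1472. Gtse1 and Chek1 are also cell cycle genes. Histone genes were mixed, with 3 of 12 higher and 3 lower. Linker histones H1f2 (273 to 1008) and H1f4 (9.5 to 42.8) and H2bc4 (604 to 2018) were higher, while H1f10, H2ax and H3f3b were 2.53-fold, 2.5-fold and 2.01-fold lower. The libraries were made from poly-A RNA, which most replication-dependent histone messages lack.

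Genes of the amino acid and endoplasmic reticulum stress response were also higher. In the ATF4 and unfolded-protein response list 19 of 31 genes were higher, 0 were lower and the median was 1.16. Fgf21, a hormone that muscle releases under mitochondrial and amino acid stress, went from 60.7 to 1634, or 26.5-fold higher. The ATF4 targets Asns, Chac1 and Trib3 were 4.52-fold, 3.94-fold and 3.63-fold higher. The amino acid carriers Slc7a5 and Slc7a11 went from 3193 to 10575 and from 34.3 to 95.6. Genes of the endoplasmic reticulum were included: the chaperone Hspa5 went from 10185 to 30472, Herpud1 from 1356 to 4896 and Sdf2l1 from 322 to 1047. Derl3, which exports misfolded proteins from that compartment and was not in the list, went from 14.0 to 185 (12.4-fold). Atf4 itself was at 3694 and 5481, and the stress-induced Sesn2 at 1491 and 751, both within 2-fold. With both days scaled to the same sum 14 of the 31 were higher and 1 lower, with a median of 0.92.

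Matrix lists had medians below 0, and their counts of lower genes depended on scaling. With both days scaled to the same sum 10 collagens, 9 laminins, nidogens and integrins, 11 matricellular genes and 7 proteases and crosslinkers were lower. That scaling also took the lower genes of all from 1472 to 2125. As deposited, 7.61% of all genes were higher and 11.0% lower. Of 25 collagens 1 was higher, the muscle collagen Col25a1 (2007 to 5273), and 5 were lower, including Col27a1 (4.39-fold) and Col7a1 (2.67-fold). Col1a2, one of the 10 genes with the greatest loss of normalized counts, was at 31469.5 and 21459, within 2-fold. Of 30 laminins, nidogens and integrins 4 were higher and 5 lower. Lama4, Itga9 and Itga7 were 6.68-fold, 2.72-fold and 2.06-fold higher, and Itga2, Itgb4, Itga8 and Itga1 were among the lower. Of 27 matricellular proteins and proteoglycans 7 were lower and 0 higher, including thrombospondin Thbs1 (19979 to 9878), Fbln1 (3.37-fold) and osteopontin, Spp1 (2.19-fold). Of 25 matrix proteases and crosslinkers 3 were lower, near the share of all genes, and 0 higher. The lower ones included the protease Plau (2.82-fold) and the crosslinker Loxl3 (2.6-fold).

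Among 34 genes of the TGF-beta, BMP and myostatin families 4 were higher and 3 lower, near the 7.61% and 11.0% of all genes. With equal sums 3 were higher and 5 lower. The BMP antagonist Nog went from 77.7 to 401, myostatin, Mstn, from 114 to 405, and activin A, Inhba, from 1267 to 517. Notch genes had 7 of 18 lower and 0 higher, with the glycosyltransferase Lfng, Hey2, Nrarp and Hes1 leading. Wnt genes were divided, with 6 of 32 higher and 7 lower. The ligands Wnt10a (41.1 to 211) and Wnt11 (17.9 to 68.6) were higher, as was the ligand acyltransferase Porcn (2.61-fold), and the effectors Tcf7l2 and Tcf7l1 were 2.49-fold and 2.32-fold lower. In the insulin-like growth factor axis 1 of 19 was higher, the ligand Igf2 (60295 to 127938), and 1 lower, Igfbp7 (2.13-fold). Among 22 Yap and Taz targets 5 were lower and 0 higher, of which Birc5 (10.6-fold) is also a mitotic gene. Of 27 cytokines and chemokines 4 were higher, including Fgf21, Ccl8 and Ccl7, and 7 lower, including Nrg1 (2.89-fold).

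Hypoxia and glycolysis genes had 6 of 29 lower and 0 higher. Gapdh lost more normalized counts than any other gene, 33056 to 9711 (3.4-fold), and Pfkl, the liver phosphofructokinase, was 2.75-fold lower. Transcripts of 58 other annotated genes hold a near-identical stretch of Gapdh (at least 97% identity over at least 200 bases), so its level is uncertain. Such a stretch was found for 44 of 206 named genes with transcripts, including Actg1, Ptma, Ccnb1, Mki67, Pclaf, Myl1, Igf2 and Pebp1. Of the other genes that lost the most normalized counts, the filamin Flna was 2.46-fold lower and caldesmon, Cald1, 2.09-fold lower, and Ptma was 3.02-fold lower. Vim, Actb, Actg1 and Ccng1 lost many counts but stayed within 2-fold, at ratios of 1.35, 1.84, 1.7 and 1.83.

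At the nuclear envelope, where emerin resides, 3 of 28 genes were higher and 5 lower, beside 7.61% and 11.0% of all genes, or 2 and 6 with equal sums. The lower ones were Ankle1 (7.32-fold), the LINC protein Syne2 (5.3-fold), lamin B1, Lmnb1 (1450.2 to 389), Nemp2 (2.6-fold) and the lamin B receptor, Lbr (976 to 454). The higher ones were Wfs1, Plpp7 and Tmem38a, at 2.56-fold, 2.38-fold and 2.24-fold. Lmna was at 15761 and 17662, and the emerin relatives Lemd2 and Lemd3 at 515 and 647 and at 362 and 419, all within 2-fold. In the list for HDAC3, a deacetylase that emerin binds, and NCoR, 1 of 24 was higher, Hdac9 (2.04-fold), and 2 lower, Hdac7 (3.26-fold) and the methyltransferase Ezh2 (2.97-fold). The HDAC3 and NCoR counts were not above the 7.61% and 11.0% of all genes.

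Over the preceding step, between day 0 and day 1, the same line had 1630 genes higher (12.0%) and 1279 lower (9.42%) of 13576. That comparison uses the same day 1 libraries, so the 2 steps are not independent, and their values are only set side by side. The contractile lists had medians of 1.28 to 1.54 in the first step and 1.43 to 1.85 in the second. The mitosis list had a median of -0.61 in the first step and -3.08 in the second. Myog had a log2 change of 1.40 and then 0.61, Cdkn1a of 1.96 and then 0.81, and Cdkn1c of 2.83 and then 0.77.

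Other lists changed pace or sign between the steps. Sterol and fatty acid synthesis had a median of 1.40 and then -0.04, with Dhcr7, Ebp and Scd2 the 3 of 33 genes that were higher in the second step. The p53 list had a median of 0.88 and then -0.70, and hypoxia and glycolysis 0.92 and then -0.54. The ATF4 and unfolded-protein response list had -0.07 and then 1.16. Interferon response genes had -1.32 in the step right after the switch of medium and 0.20 in the next. γ-interferon, serum, temperature and CO2 all changed at that switch, so they cannot be told apart, and none was tested as a cause. In that next step 4 of 45 were higher, near the 7.61% of all genes, and 0 lower. With both days scaled to the same sum 3 were higher and 4 lower. The 4 higher as deposited were Ifit3 (97.1 to 259.7), Ifi44 (41.5 to 107), Gbp6 (1308 to 3246) and Isg15 (216 to 449). The sterol and the interferon medians in the second step depend on scaling, since they became -0.27 and -0.03 with both days scaled to the same sum.

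**Figure D3:**
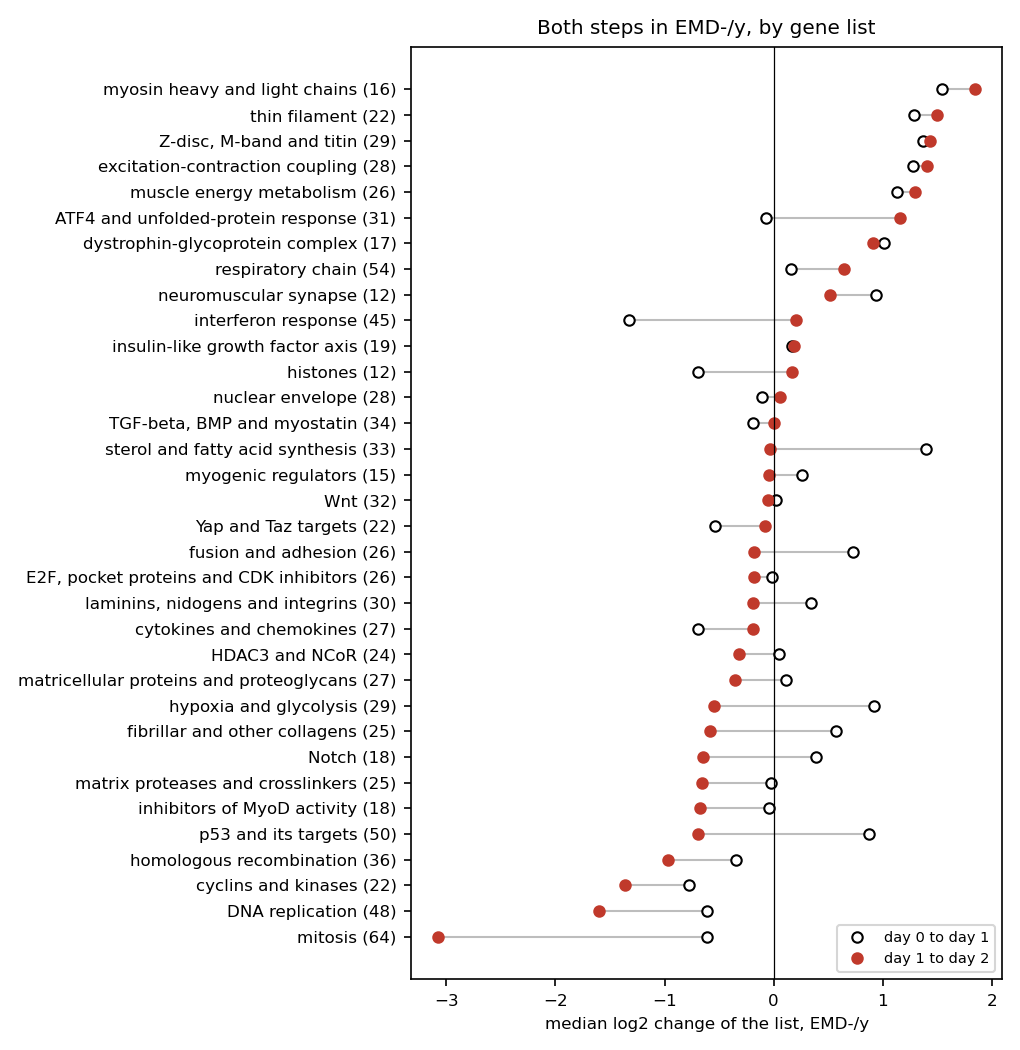
Each row is a gene list of EMD-/y cells with the median log2 change of its genes from day 0 to day 1 (open circle) and from day 1 to day 2 (filled red circle); the number in parentheses counts genes above the floor. Mitosis moves from -0.61 to -3.08 and ATF4 and unfolded-protein response from -0.07 to 1.16, while both steps share the day 1 libraries.

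In wildtype progenitors the same step gave 1063 higher (8.01%) and 1579 lower (11.9%) of 13268 genes. Of the EMD-/y genes that were higher and above the floor in wildtype, 749 of 940 (79.7%) were also higher in wildtype and 5 were lower. Of those that were lower, 1125 of 1375 (81.8%) were lower in wildtype and 1 was higher. The 2 transitions have no library in common and were normalized separately, so changes and not levels are compared, and without replicate values no difference between them was tested. In the libraries labelled +EMD the step gave 1463 higher (11.0%) and 1267 lower (9.53%) of 13301.

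The step differed at least 2-fold between EMD-/y and wildtype in 317 of 12940 genes that were above the floor in both. It was more positive in EMD-/y in 184 (1.42%) and more negative in the rest (1.03%). Cell cycle genes of the 3 lists supplied 35 of the 184 and 0 of the rest. In the mitosis list 60 of 64 genes had a less negative change in EMD-/y than in wildtype, and 31 by at least 2-fold. The medians were -3.08 in EMD-/y, -4.27 in wildtype and -1.76 in +EMD. Over all genes above the floor they were -0.01 in EMD-/y and -0.005 in wildtype. The share of all genes with a more positive change in EMD-/y was not counted. Mki67 was 10.2-fold lower in EMD-/y and 52.6-fold lower in wildtype, where it went from 3977 to 74.6. For Hmmr the ratios were 11.7-fold and 42.0-fold, and for Ccna2 11.0-fold and 39.9-fold. The replication factor Pclaf was 8.34-fold and 40.1-fold lower, and Tk1 5.75-fold and 18.5-fold lower. Replication genes as a list had medians of -1.61 and -1.72.

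**Figure D4:**
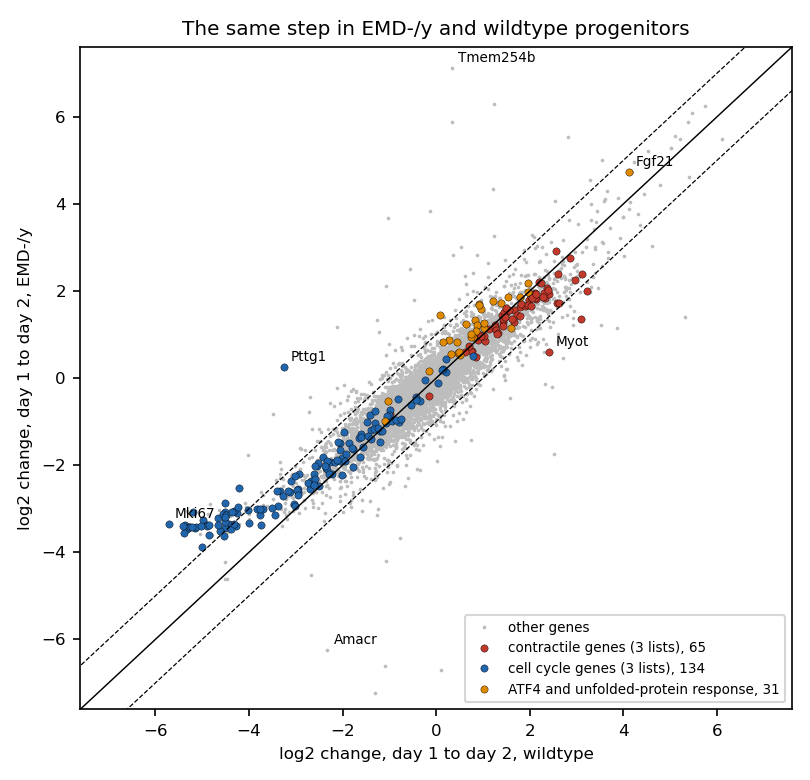
Each point is a gene above the floor in both lines, with its log2 change from day 1 to day 2 in wildtype (x) and in EMD-/y (y); the solid line marks equal changes and the dashed lines a 2-fold difference between them. The steepest cell cycle genes leave the diagonal, with Mki67 at -5.72 in wildtype and -3.35 in EMD-/y, while most contractile genes lie just under it.

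The levels on each day were also set against wildtype. On day 1 the mitosis genes had a median log2 ratio of EMD-/y to wildtype of 0.05, with 0 of 64 at least 2-fold higher in EMD-/y (4.61% of all genes) and 1 at least 2-fold lower (2.81%). On day 2 the median was 0.99, with 58 of 64 above 0, 31 at least 2-fold higher (4.77% of all genes) and 0 lower (2.86%). Over all genes above the floor the median ratio was -0.005 on day 1 and -0.004 on day 2, and the share above 0 was not counted. Pttg1 (GRCm38 chr11:43420244-43427463) had the widest difference between the changes in the mitosis list: in wildtype it went from 771 to 80.6, against 303 and 362 in EMD-/y. Contractile genes leaned the other way by a small amount. The change was less positive in EMD-/y in 13 of 15 myosins, 18 of 21 thin filament and 22 of 29 Z-disc genes with a wildtype value. That share over all genes was not counted. The medians of these lists were 1.85 and 2.03, 1.5 and 1.67, and 1.43 and 1.55, and +EMD had 3.19, 2.46 and 3.14. The median log2 ratios of EMD-/y to wildtype for these lists were 0.27, 0.13 and 0.17 on day 1 and 0.09, -0.04 and 0.05 on day 2. Of these genes the anchoring protein myotilin, Myot, had the widest difference, with a change of 0.59 in EMD-/y and 2.41 in wildtype. With each day's level taken from the comparison with wildtype, the EMD-/y change of Myot was 0.905. In those comparisons its log2 ratio of EMD-/y to wildtype was 1.54 on day 1 and 0.29 on day 2, so the size of its difference is uncertain. Myh2 had changes of 2.92 and 2.56 but its log2 ratio of EMD-/y to wildtype was -3.76 on day 2.

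**Figure D5:**
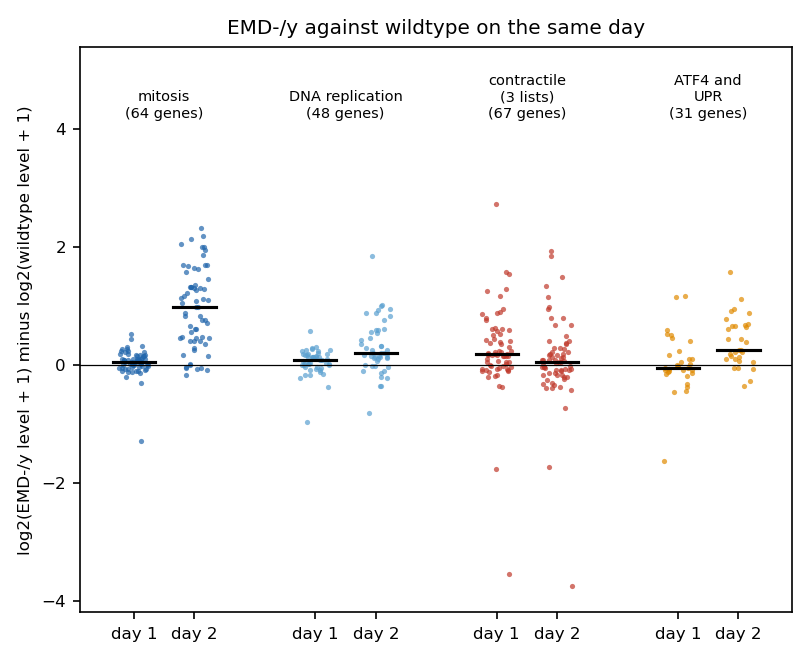
Points are genes of 4 groups above the floor, with the log2 ratio of the EMD-/y to the wildtype level on day 1 and on day 2; black bars are medians and sideways scatter has no meaning. The mitosis median is 0.05 on day 1 and 0.99 on day 2, while the DNA replication medians are 0.09 and 0.20.

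The change in ATF4 and unfolded-protein response genes was more positive in EMD-/y than in wildtype in 30 of 31 genes. It was at least 2-fold more positive in 1 (1.42% of all genes), and the medians were 1.16 and 0.83. In wildtype 10 of the 31 were higher and 2 lower. Fgf21 had 26.5-fold in EMD-/y and 17.4-fold in wildtype, Hspa5 2.99-fold and 1.94-fold, and Slc7a11 2.74-fold and 1.06-fold. Sterol genes leaned the same way in 31 of 33, with medians of -0.04 and -0.41, and interferon genes in 34 of 44, with 0.20 and 0.03. The share of all genes that leaned this way was not counted. In +EMD the medians of the ATF4, sterol and interferon lists were 1.10, -0.08 and -0.46. Interferon genes had median log2 ratios of EMD-/y to wildtype of -0.26 on day 1 and -0.19 on day 2. On day 2, 14 of 45 were above wildtype. Ifit3 was 2.66-fold higher in EMD-/y and 1.12-fold in wildtype.

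Among the genes with the most extreme ratios, most were in no list. Tmem254b (chr14:26203366-26207025) had the largest ratio, from 1.36 to 327, and its neighbour Tmem254c (chr14:26063751-26067425) went from 555 to 61.9. Both share identical transcript stretches of over 1000 bases with Tmem254a, so reads can pass between them. From the comparisons with wildtype, the same day 1 libraries gave Tmem254b a level of 35.2 after scaling, which makes its log2 change 3.18 in place of 7.12. Amacr (chr15:10981756-10996624), a peroxisomal racemase, had the most negative change among genes with a level of at least 100 that the provider had not predicted, 204 to 1.69, with a log2 change of -2.33 in wildtype and -7.31 in +EMD. In the direct comparisons its log2 ratio of EMD-/y to wildtype was -0.75 on day 1 and -1.47 on day 2. That is a narrower gap than the separately normalized changes give. The histone H2ac23 went from 253 to 10.0 and the pseudogene Ptprv from 153 to 18.1. Tssc4 was at 194 and 109 and had a log2 change of -3.48 in wildtype. The remaining genes with the largest ratios were Atp5md (10.9 to 277), the glycosyltransferase Galnt6 (89.3 to 845), Tspan13 (177 to 1554), Pebp1 (479 to 4126) and the mitochondrial protein Chchd10 (167 to 1245), and, among those that were lower, Pif1, Neil3 and Dlgap5 at 12.2-fold, 12.1-fold and 11.1-fold.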

How the data were processed

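RNA was poly-A selected and sequenced on a DNBseq instrument. Per the labels and the study's methods, reads were filtered with SOAPnuke, mapped to mm10 with HISAT2 and compared with DESeq2 by the sequencing provider, with versions not given in the sources used here. The deposited values used here are signal levels in normalized counts, 1 per gene and group, pooled by the authors over 3 libraries. The methods give 3 technical replicates for each of 2 biological replicates, and which kind the labelled replicates are is not stated. The authors' own columns of fold changes, p-values and calls were not used.

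Mean levels of the 508 genes with 2 reads in the main comparison were sums of 2 single-read values for all 508 (tolerance 1e-06), so size factors could be read: 1.07 to 1.11 on day 1 and 0.849 to 0.966 on day 2. The day 1 level of the same libraries in another comparison, scaled by the median, was within 0.1 (log2) for 96.5% of 13057 genes with a level of at least 10 and for 99.0% of 10304 with at least 100. Without levels per library no test was possible.

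Of 16345 genes that were not predicted by the provider, 16323 took their symbol from RefSeq by Entrez number. The other 1531 genes were predicted from reads. Changes were computed as log2((day 2 + 1)/(day 1 + 1)) with Python 3.11.15 and pandas. Levels per kilobase used the transcript lengths in the tables, and the counting was checked on simulated levels. Near-identical transcripts were found with minimap2 2.31-r1302 against GENCODE transcripts. Of 27 deposited comparisons 6 were used. Members, 34 gene lists and 7 marker lists were chosen with earlier results of these data known. Named genes were Emd, the 10 largest ratios each way among genes with a level of at least 100, the 10 largest gains and losses of normalized counts, up to 4 per list and direction, the MyoD, E2F and CDK inhibitor genes, and the 5 largest differences from wildtype each way. Other list members given with values were chosen after their values were seen. A few genes that the rule picked are not reported here.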

Additional observations from a re-analysis of the deposited data

How the results depend on the processing

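Counts of higher and lower genes in EMD-/y and wildtype stayed within 1.5 times under pseudocounts of 0.1 and 10, no floor, a floor of 50, centring on the median and removal of predicted genes. With a 1.5-fold threshold they were 2352 higher and 2885 lower in EMD-/y and 2354 and 2914 in wildtype, and with a 4-fold threshold 201 and 331, and 293 and 349. With both days scaled to the same sum 644 genes were higher in EMD-/y. Lists with a median past the threshold numbered 10 (1 of them the Schwann and neural markers, with 2 genes above the floor), or 20 at 1.5-fold and 1 at 4-fold. The counts of genes with a change at least 2-fold above (184) and below that of wildtype became 107 and 52 with a pseudocount of 10, 318 and 291 with no floor, 119 and 49 with a floor of 50, 559 and 511 at 1.5-fold, 24 and 15 at 4-fold, and 86 were below without predicted genes. With each day's levels taken from the comparison with wildtype, an alternative chosen after seeing the data, 1100 genes were higher and 1602 lower, and 0 of the 213 named genes turned sign. No value of a list or leading gene past the threshold reversed under any of these settings. No paired analysis was possible because the deposited levels are pooled over replicates, and leaving out a replicate could not be run for the same reason. Depth limits genes under about 10 normalized counts, whose ratios were drawn towards 1.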

Other observations

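Among the 213 named genes, 138 had a change within 0.1 (log2) of the value rebuilt from the comparisons with wildtype, and 9 differed by more than 0.5. Beside Tmem254b these included Myh2 (2.92 and 2.41), Amacr (-6.25 and -5.69), Tssc4 (-0.83 and -1.40), Cnn1 (-1.18 and -1.99) and Ankle1 (-2.87 and -3.57).

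Gapdh stood at 33056 and 9711 in EMD-/y and at 5756 and 2419 in wildtype in separately normalized comparisons, and its log2 ratio of EMD-/y to wildtype was 2.02 on day 2. In the preceding step of EMD-/y its change was 2.42. Pebp1 had a change of -2.52 in the first step and 3.10 in the second. Ptprv was at a log2 ratio of -4.99 to wildtype on day 2, and Pvalb at 3.31.

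Genes that the provider predicted from reads made up 749 of the 13349 genes above the floor, with 175 higher and 132 lower on day 2. They supplied 30 of the 184 genes with a more positive and 47 of those with a more negative change in EMD-/y than in wildtype.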
